A study of Mus musculus with 13 samples.

Results

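The 9 genes described here encode the contractile apparatus of myoepithelial cells: the actins Acta2 and Actg2, the myosin heavy chain Myh11, the kinase Mylk, the thin filament proteins Cnn1, Tagln, Smtn and Lmod1, and the receptor Oxtr. They were chosen by gene symbol, and 8 of the 9 have a row among the 17957 entries of the authors' normalised table. Oxtr has a row only in the authors' count table of 48733 entries. RNA was sequenced from mouse submandibular glands, with 5 libraries labelled PreIR-NTN, 5 labelled PreIR-GFP and 3 labelled NonIR. PreIR-NTN glands were injected with Cere-120, an AAV2 vector that carries neurturin (NRTN), 10 days before the glands were irradiated. PreIR-GFP glands were injected with AAV2-GFP, which carries green fluorescent protein, on the same schedule. NonIR glands were controls that were not irradiated, and the labels do not state whether they received a vector, so irradiation and vector cannot be told apart against them. All mice were 1 year old, of the strain labelled CH3, and glands were collected at day 300. The labels name neither the radiation dose nor the promoter of the vectors.

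Myoepithelial cells are flat epithelial cells that wrap the acini and ducts of salivary glands and squeeze saliva out of them. They combine basal keratins with the contractile proteins of smooth muscle, in which calcium signals activate myosin light chain kinase, the kinase phosphorylates the regulatory light chain, and smooth muscle myosin pulls on actin. Smooth muscle of arteries and pericytes uses many of the same proteins, so in RNA from a whole gland a contractile transcript is not tied to 1 cell type.

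Libraries held 9724301 to 16771003 reads in genes, and the 10 most abundant genes took 29.7% to 55.5% of them. Values below are CPM, read counts scaled to a common library size by TMM, which corrects that size for such differences in composition. No library had a read of the GFP or vector entries of the count table, so the vectors could not be checked there, and the neurturin gene Nrtn had 34 to 161 reads per library. The basal keratin genes were present in every library: Krt14 averaged 48.5 ± 11.4 CPM in PreIR-NTN, 48.9 ± 4.94 CPM in PreIR-GFP and 52.7 ± 2.35 CPM in NonIR glands (SD, n = 5, 5 and 3). Markers of mural cells (vascular smooth muscle and pericytes) had very unequal levels. Over all libraries Rgs5, a pericyte gene, had 63213 reads, Abcc9 1754 and Pdgfrb 488, while Des, the muscle intermediate filament gene, had 64. Whether the level of Rgs5 follows the number of mural cells was not tested. In 1 library, PreIR-GFP 2, a list of 12 skeletal muscle genes summed to 201 CPM, against 3.12 to 6.27 CPM in the other 12 libraries. Acta1, the skeletal muscle actin, had 80.9 CPM there. In PreIR-GFP 1 Rgs5 reached 753 CPM. The results on the contractile genes were therefore also computed without both libraries, and none of the 8 genes passed the test with or without them. The labels do not say that replicates are separate animals, so p-values measure the spread between these libraries.

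Promoters are shown for the most abundant of the genes, Acta2, for Lmod1, and for Oxtr, whose transcript was almost absent. They are the 300 bases around the RefSeq gene start on GRCm38.p6, 5′ to 3′ on the gene's strand, at chr19:34255324-34255623 (minus strand) for Acta2, chr1:135324563-135324862 (plus strand) for Lmod1 and chr6:112489776-112490075 (minus strand) for Oxtr. Capitals mark a match to the CArG box, the binding motif of serum response factor (SRF), with 1 mismatch allowed.
Acta2: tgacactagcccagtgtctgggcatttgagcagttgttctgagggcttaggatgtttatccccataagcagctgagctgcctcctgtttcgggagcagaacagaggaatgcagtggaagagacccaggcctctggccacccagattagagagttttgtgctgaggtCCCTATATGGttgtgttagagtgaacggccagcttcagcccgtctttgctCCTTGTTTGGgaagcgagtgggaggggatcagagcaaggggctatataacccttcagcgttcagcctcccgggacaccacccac
Lmod1: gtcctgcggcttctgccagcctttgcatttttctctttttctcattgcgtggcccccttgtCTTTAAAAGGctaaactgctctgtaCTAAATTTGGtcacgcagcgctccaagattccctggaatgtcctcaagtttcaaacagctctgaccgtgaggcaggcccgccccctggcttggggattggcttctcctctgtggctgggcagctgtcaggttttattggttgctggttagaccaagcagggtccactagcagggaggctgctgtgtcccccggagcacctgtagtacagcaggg
Oxtr: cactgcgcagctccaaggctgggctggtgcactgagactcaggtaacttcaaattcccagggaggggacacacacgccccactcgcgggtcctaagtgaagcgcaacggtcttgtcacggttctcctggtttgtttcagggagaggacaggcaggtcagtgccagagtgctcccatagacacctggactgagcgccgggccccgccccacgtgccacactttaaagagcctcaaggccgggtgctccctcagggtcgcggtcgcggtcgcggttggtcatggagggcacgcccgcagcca
Each of Acta2 and Lmod1 holds 2 such matches, at -84 to -75 and -34 to -25 from the gene start in Acta2, and at -189 to -180 and -164 to -155 in Lmod1. The promoter table holds 6 of the 9 genes, namely these 3 with Cnn1, Mylk and Smtn. No CArG box without a mismatch was found in the 6 windows, against 1.63% of all 32851 promoters. With 1 mismatch the box was in 2 of the 6 and in 19.9% of all promoters. GGAATG, the motif of TEAD factors, searched on both strands, was in Acta2, Lmod1, Smtn and Mylk, and in 14.7% of all promoters. A match describes the sequence and is not a measured binding site.

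The contractile genes were expressed over a range of more than 2 orders of magnitude. Levels are compared between genes as CPM per kilobase of merged exons. Acta2, α-smooth muscle actin, was highest in 13 of 13 libraries, with 163 ± 23.1 CPM per kilobase (SD over 13 libraries). Tagln followed at 23.9 ± 4.00, Cnn1 at 20.5 ± 4.29 and Myh11 at 16.1 ± 4.00 CPM per kilobase. These 3 lay close together: Tagln exceeded Cnn1 in 12 of 13 libraries, and Cnn1 exceeded Myh11 in 10 of 13. A wider gap separated them from the remaining genes, with Myh11 above Mylk in 13 of 13 libraries. Mylk had 2.42 ± 0.675, Actg2 1.82 ± 0.841, Lmod1 1.47 ± 0.383 and Smtn 1.31 ± 0.221 CPM per kilobase. Within this lower group Mylk exceeded Actg2 in 11 of 13 libraries, Actg2 exceeded Lmod1 in 7 of 13, and Lmod1 exceeded Smtn in 11 of 13. The order of Lmod1 and Smtn depends on the length used: per kilobase of the longest transcript, Smtn averaged 1.93 CPM against 1.67 CPM for Lmod1 in PreIR-NTN glands, 1.54 against 1.35 in PreIR-GFP and 1.54 against 1.35 in NonIR glands.

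**Figure D1:**
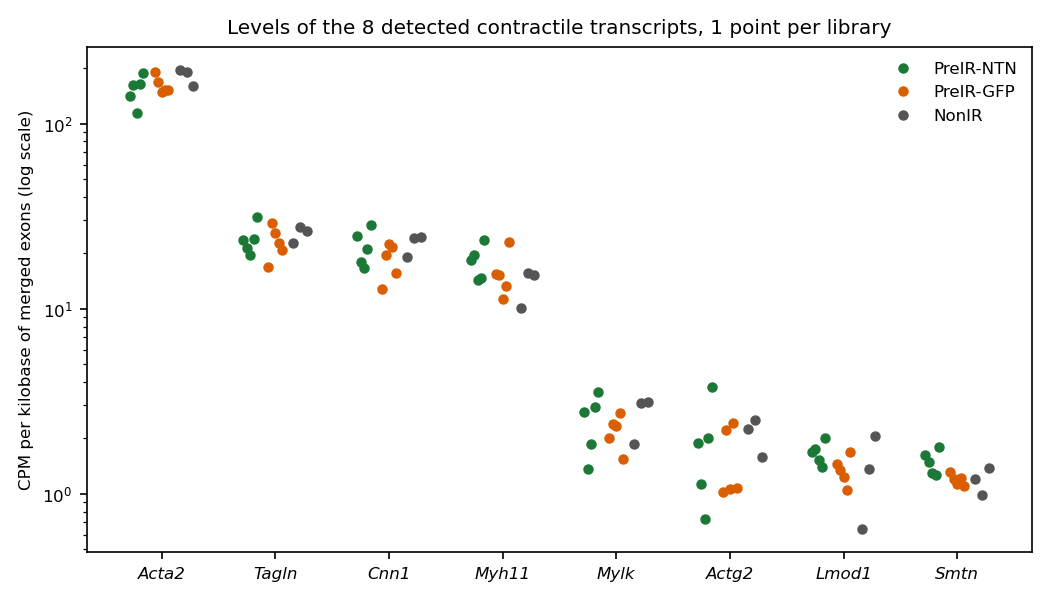
Level of the 8 detected contractile genes in CPM per kilobase of merged exons (vertical axis, log scale), with 1 point for each PreIR-NTN, PreIR-GFP and NonIR library. Acta2 stands alone at the top, Tagln, Cnn1 and Myh11 form a middle band, and Mylk, Actg2, Lmod1 and Smtn overlap at the bottom, with the 3 groups intermixed for every gene.

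Oxtr encodes the receptor through which oxytocin contracts the myoepithelium of the mammary gland. In these submandibular glands it had 0 reads in each of the 5 PreIR-NTN libraries, 1 read in PreIR-GFP 5 and 0 reads in the other 4 PreIR-GFP libraries, and 0 reads in the 3 NonIR libraries. That is 1 read among 182653326. A count of 0 allows up to 3 reads, which is 0.176 to 0.253 CPM depending on the library, so Oxtr was not detectable at this depth in 12 of 13 libraries and no fold change is given. Oxtr lies at chr6:112473683-112489943 on the minus strand of GRCm38.

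The actins showed no difference between groups beyond the spread of libraries. Acta2 (ENSMUSG00000035783, chr19:34241090-34255590, minus strand) had 308, 355, 252, 360.0 and 412 CPM in the PreIR-NTN libraries. It had 415, 366, 324, 335 and 332 CPM in the PreIR-GFP libraries. In the NonIR libraries it had 428, 417 and 351 CPM. The lowest library was a PreIR-NTN one, the highest a NonIR one, and all 3 groups overlapped. Actg2, γ-smooth muscle actin of gut and other visceral muscle (ENSMUSG00000059430, chr6:83512905-83536265, minus strand), had 2.94, 1.76, 1.14, 3.12 and 5.87 CPM in PreIR-NTN glands. It had 1.60, 3.43, 1.64, 3.78 and 1.66 CPM in PreIR-GFP glands and 3.49, 3.88 and 2.45 CPM in NonIR glands. PreIR-GFP values of Actg2 split into 3 low and 2 high libraries, and the PreIR-NTN libraries spanned the whole range of the other groups. Actg2 rests on 14 to 74 reads per library. The actin proteins are near-identical. Whether reads were shared between Actg2, Acta2 and Acta1 was not tested, so the level of Actg2 is uncertain.

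Myosin and its kinase also overlapped between all groups. Myh11, the smooth muscle myosin heavy chain (ENSMUSG00000018830, chr16:14194535-14291372, minus strand), had 139.7, 148, 109, 111 and 179 CPM in PreIR-NTN glands. It had 116, 116, 85.6, 101 and 174 CPM in PreIR-GFP glands, and 76.7, 118 and 115 CPM in NonIR glands. Group means of Myh11 were 137 ± 28.8 CPM in PreIR-NTN, 118 ± 33.4 CPM in PreIR-GFP and 104 ± 23.3 CPM in NonIR glands (SD, n = 5, 5 and 3), which is the reverse of the order of Acta2, at 337 ± 60.3, 354 ± 37.5 and 399 ± 41.5 CPM. Mylk, myosin light chain kinase (ENSMUSG00000022836, chr16:34745210-35002420, plus strand), had 31.0, 15.4, 21.0, 33.3 and 39.9 CPM in PreIR-NTN glands. It had 22.4, 26.7, 26.2, 30.6 and 17.3 CPM in PreIR-GFP glands, and 20.8, 35.0 and 35.4 CPM in NonIR glands. PreIR-NTN libraries held both the lowest and the highest Mylk value of the series.

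Cnn1 and Tagln, proteins bound along the actin filament, varied more between libraries than between groups. Cnn1, calponin 1, which restrains the myosin ATPase (ENSMUSG00000001349, chr9:22099216-22109630, plus strand), had 67.4, 48.7, 45.2, 57.2 and 77.2 CPM in PreIR-NTN glands. It had 34.9, 53.1, 61.1, 58.7 and 42.4 CPM in PreIR-GFP glands, and 52.3, 66.2 and 66.5 CPM in NonIR glands. The 2 lowest Cnn1 libraries were PreIR-GFP 1 and PreIR-GFP 5. Tagln, transgelin or SM22α, an actin-bundling protein (ENSMUSG00000032085, chr9:45929619-45936058, minus strand), had 46.5, 42.2, 38.8, 47.2 and 62.2 CPM in PreIR-NTN glands. It had 33.5, 57.3, 51.0, 45.0 and 41.2 CPM in PreIR-GFP glands, and 45.0, 54.9 and 52.5 CPM in NonIR glands. PreIR-GFP 1 was again lowest and PreIR-NTN 5 highest, for both genes.

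Exons of Tagln overlap exons of Pcsk7 on the other strand. The libraries were made from full-length cDNA with kits that keep no strand (SMART-Seq v4 and Nextera XT). Reads in exons shared by such a pair therefore cannot be told apart, and the level of Tagln is uncertain. Pcsk7 had 6571 reads over all libraries, against 8573 for Tagln. Mylk and Smtn overlap other genes on the opposite strand as well.

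Lmod1 and Smtn were low but present in every library. Lmod1, leiomodin 1, which nucleates actin filaments in smooth muscle (ENSMUSG00000048096, chr1:135324807-135368065, plus strand), had 6.67, 6.86, 6.03, 5.51 and 7.93 CPM in PreIR-NTN glands. It had 5.73, 5.28, 4.85, 4.11 and 6.66 CPM in PreIR-GFP glands, and 2.53, 5.40 and 8.09 CPM in NonIR glands. The 3 NonIR libraries held both extremes of Lmod1. Smtn, smoothelin, an actin-binding protein of contractile smooth muscle (ENSMUSG00000020439, chr11:3517523-3540612, minus strand), had 7.10, 6.51, 5.70, 5.51 and 7.85 CPM in PreIR-NTN glands. It had 5.73, 5.28, 4.93, 5.33 and 4.81 CPM in PreIR-GFP glands, and 5.27, 4.30 and 6.05 CPM in NonIR glands. Of the 5 PreIR-NTN libraries, 3 lay above every PreIR-GFP library and the other 2 lay within their range.

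**Figure D2:**
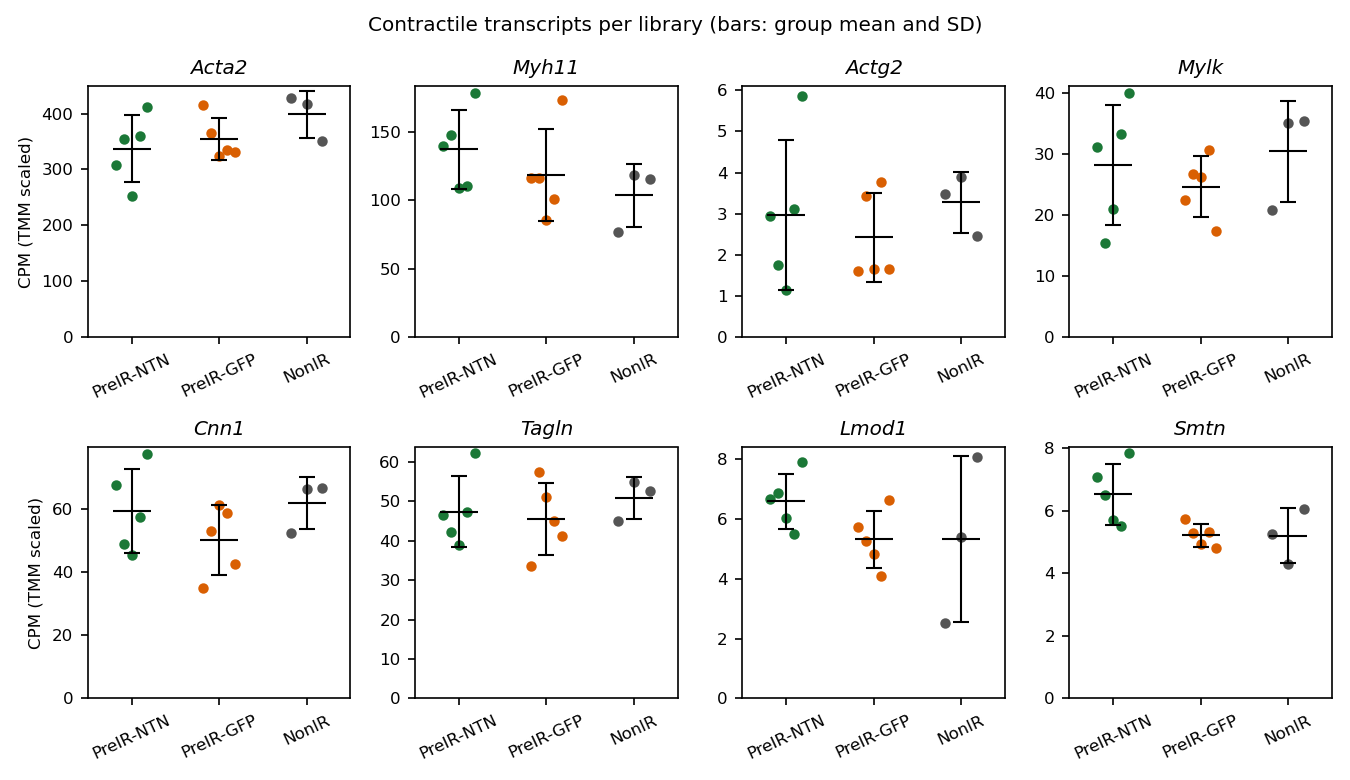
CPM (TMM scaled, vertical axes from 0) of the 8 detected contractile genes, with 1 point per library and bars for the group mean and SD, in PreIR-NTN (n = 5), PreIR-GFP (n = 5) and NonIR glands (n = 3). The groups overlap in every panel, and Actg2 and Mylk spread most within PreIR-NTN.

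Irradiated glands given AAV2-GFP were compared with non-irradiated glands to ask whether the contractile genes differed long after irradiation. They did not do so beyond the spread of libraries: 0 of the 8 genes passed an adjusted p of 0.05 in edgeR's quasi-likelihood test with Benjamini-Hochberg adjustment over 14727 genes, where 0.034% of all genes passed. At an unadjusted p under 0.05 the count was 0 of 8 as well, against 8.78% of all genes. DESeq2 and limma-voom also called 0 of 8. The groups did not separate for any of the 8 genes, against 5.14% of all genes with groups that did not overlap. The median log2 fold change of the 8 genes was -0.16, against 0.02 over all genes. Fitted values were below 0 for 5 of the 8, against 47.3% of all genes: Actg2 (-0.43), Mylk (-0.30), Cnn1 (-0.30), Acta2 (-0.17) and Tagln (-0.16). The 3 above 0, against 52.7% of all genes, were Myh11 (0.19) and, within 0.01 of 0, Lmod1 and Smtn, where Smtn turned to -0.01 with DESeq2 size factors. Over the 24 alternatives Lmod1 ran from -0.32 to 0.43 and Smtn from -0.12 to 0.12, so neither had a fixed direction. For Acta2 the 95% interval of the log2 fold change ran from -0.49 to 0.15, for Cnn1 from -0.73 to 0.12, and for Actg2 from -1.37 to 0.51, so the data leave changes of these sizes possible. In bulk RNA, fewer contractile cells and less transcript per cell cannot be told apart.

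Neurturin-treated irradiated glands were compared with GFP-treated irradiated glands, the comparison in which both groups received a vector and radiation. Again 0 of the 8 genes passed the adjusted edgeR test, where 0.0204% of all genes did, and DESeq2 and limma-voom called 0 of 8. No gene of the 8 had groups that did not overlap, against 1.11% of all genes. Of the 8 fitted log2 fold changes 7 were above 0, against 47.3% of all genes, with a median of 0.23 against -0.01 over all genes. The gene below 0 was Acta2, against 52.7% of all genes. PreIR-NTN 5 weighed on these values. The mean over the 8 genes of log2 CPM centred per gene was 0.55 in that library. It was -0.31 to 0.16 in the other PreIR-NTN libraries and -0.22 to 0.06 in PreIR-GFP libraries. Signs turned for 3 genes: Tagln was -0.02 with scaling by total reads alone, -0.02 without PreIR-GFP 1 and -0.06 without PreIR-NTN 5. Actg2 was -0.11 without PreIR-NTN 5. Acta2 was 0.01 without PreIR-GFP 1, 0.02 without PreIR-NTN 3 and 0.06 without PreIR-GFP 1 and PreIR-GFP 2. Smtn was the only one of the 8 with an unadjusted p under 0.05, a share of 6.08% over all genes, and in 12 of 24 alternatives its p was not under 0.05. It averaged 6.53 ± 0.974 CPM in PreIR-NTN and 5.22 ± 0.362 CPM in PreIR-GFP glands (SD, n = 5 each), a log2 fold change of 0.33 (SE 0.15, 95% interval 0.01 to 0.64), with an edgeR adjusted p of 0.811. An exact two-sided permutation test of Smtn gave an unadjusted p of 0.0238, where the smallest possible is 0.00794. The other values were 0.31 for Lmod1, 0.28 for Actg2, 0.24 for Cnn1, 0.21 for Myh11, 0.19 for Mylk, 0.05 for Tagln and -0.07 for Acta2.

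Summed markers of fibroblasts did not overlap between the same groups, and those of vascular smooth muscle and pericytes did. The 10 fibroblast genes on the list summed to 167 to 224 CPM in PreIR-NTN and 263 to 421 CPM in PreIR-GFP libraries. Dcn was the largest part of these sums, with means of 119 CPM in PreIR-NTN and 192 CPM in PreIR-GFP libraries. All 10 genes had a fitted log2 fold change below 0, where 52.7% of all genes did. Of these Dpt, dermatopontin, passed the edgeR test, with a log2 fold change of -1.33 and an adjusted p of 0.0175. The 15 genes of vascular smooth muscle and pericytes summed to 236 to 386 CPM in PreIR-NTN and 315 to 811 CPM in PreIR-GFP libraries. Rgs5 made up most of these sums, with means of 259 CPM in PreIR-NTN and 454 CPM in PreIR-GFP libraries. Of the 13 tested genes 9 were below 0, and 0 passed the adjusted edgeR test. At an unadjusted p under 0.05, 4 of these 13 and 7 of the 10 fibroblast genes were lower. In either direction 6.08% of all genes had such a p. Below 0 were 52.7% of all genes, and no gene of either list was at 0 in all libraries. Their part in the values of the contractile genes was not tested.

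PreIR-NTN was also set against NonIR. Here 0 of the 8 genes passed the adjusted edgeR test, where 0.0204% of all genes did, and 0 of 8 had an unadjusted p under 0.05, against 7.97% of all genes. DESeq2 and limma-voom called 0 of 8. Groups overlapped for all 8 genes, while 6.52% of all genes had groups that did not. Fitted values were above 0 for 3 of 8, against 50.5% of all genes, and below 0 for 5, against 49.5%. The median log2 fold change was -0.08, against 0.00 over all genes. Myh11 had the highest fitted value, 0.41 (SE 0.22, 95% interval -0.07 to 0.88), and Acta2 the lowest, -0.24 (SE 0.15, 95% interval -0.56 to 0.08). The others were 0.33 for Smtn, 0.31 for Lmod1, -0.15 for Actg2, -0.11 for Mylk, -0.10 for Tagln and -0.06 for Cnn1. Over the 24 alternatives Lmod1 ran from -0.01 (without NonIR 1) to 0.74 (without NonIR 3), Actg2 from -0.56 to 0.05, Mylk from -0.31 to 0.06 and Cnn1 from -0.17 to 0.02, so the direction of these 4 was not fixed. Lmod1 and Smtn had an unadjusted p under 0.05 without NonIR 3, and Acta2 did without PreIR-NTN 5. The 3 comparisons share groups, so their values for a gene are not independent.

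**Figure D3:**
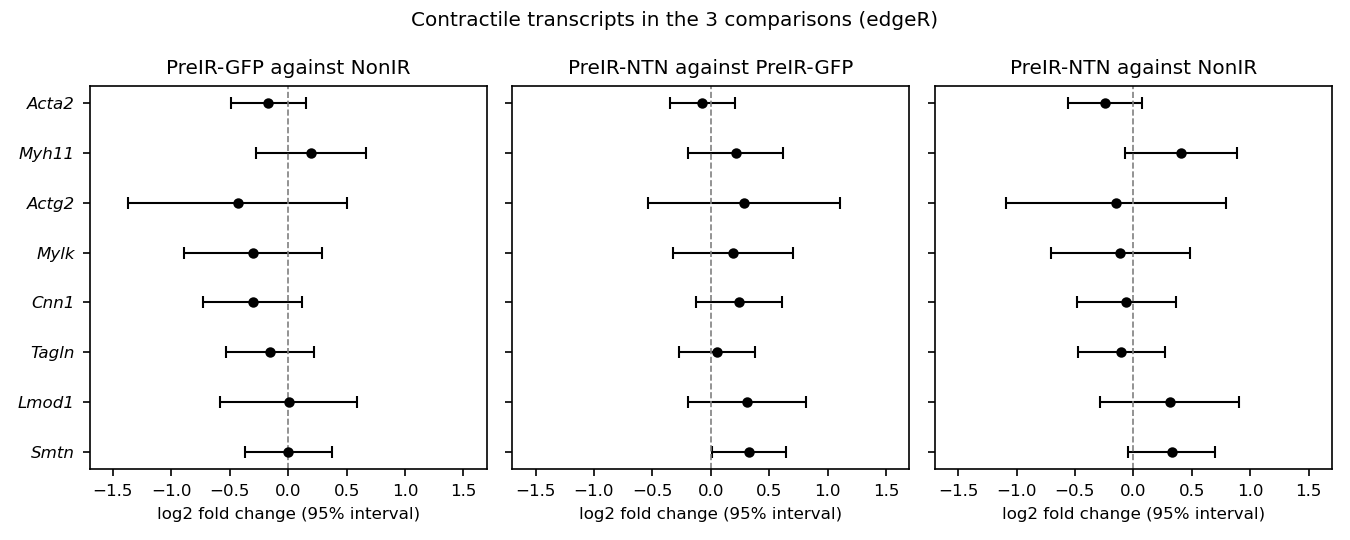
Fitted log2 fold change with its 95% interval (horizontal axis) of the 8 detected contractile genes in each comparison, from edgeR. Every interval includes 0 except that of Smtn in PreIR-NTN against PreIR-GFP, which starts at 0.01 and did not pass after adjustment.

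The other genes of the contraction pathway, in 6 lists chosen by function, gave 0 genes past the adjusted edgeR test in each of the 3 comparisons. Of the 71 tested, of 81 listed, 8 had an unadjusted p under 0.05 in PreIR-GFP against NonIR, where 8.78% of all genes did. In PreIR-NTN against PreIR-GFP 5 did, against 6.08% of all genes, and in PreIR-NTN against NonIR 3 did, against 7.97%. These counts are near or below the shares over all genes. limma-voom also called 0, and DESeq2 called 1, the angiotensin receptor gene Agtr1a in PreIR-GFP against NonIR, at an adjusted p of 0.0497. All 9 thin filament genes were tested, and Tpm2, a tropomyosin of the thin filament, had the lowest unadjusted p among them in PreIR-NTN against PreIR-GFP, with 20.7 CPM in PreIR-NTN and 13.8 CPM in PreIR-GFP glands and a log2 fold change of 0.59. Cald1, caldesmon (0.22), and the tropomyosin Tpm4 (0.20) followed. In PreIR-GFP against NonIR the first 3 were Tagln2 (-0.24), the calponin Cnn3 (-0.17) and Tpm1 (0.14), all with an unadjusted p over 0.05. Of 7 myosin chain genes none reached an unadjusted p of 0.05. The non-muscle heavy chain Myh10 had log2 fold changes of 0.37 in PreIR-GFP against NonIR and -0.19 in PreIR-NTN against PreIR-GFP, Myh9 had 0.85 in the first, and the light chain Myl12a had -0.19 and 0.13 in the same order.

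Signals that start contraction were measured through receptors and calcium release. Of 25 such genes 18 were tested. In PreIR-GFP against NonIR, 1 was higher and 3 were lower at an unadjusted p under 0.05, where 5.35% of all genes were higher and 3.43% lower. Agtr1a, the angiotensin II receptor, had 0.809 CPM in PreIR-GFP and 2.56 CPM in NonIR glands, a log2 fold change of -1.63 with an edgeR adjusted p of 0.233. Adra1a, an α1-adrenergic receptor, had 25.2 CPM in PreIR-GFP and 35.7 CPM in NonIR glands (log2 fold change -0.50), and Itpr2, the inositol trisphosphate receptor of secretory cells, had 76.9 CPM in PreIR-GFP and 55.5 CPM in NonIR glands (0.47). The third lower gene was Chrm1, a muscarinic acetylcholine receptor, at -0.53. In PreIR-NTN against PreIR-GFP, Chrm1 had 12.6 CPM in PreIR-NTN and 9.62 CPM in PreIR-GFP glands (log2 fold change 0.39, the 1 receptor gene with an unadjusted p under 0.05), followed by Agtr1a (0.77) and the endothelin receptor Ednrb (-0.53). These receptors also occur on acinar, vascular and nerve cells.

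Kinase, anchor and transcription factor lists also had no gene past the adjusted edgeR test, and few at an unadjusted p under 0.05. Of 10 tested genes of kinase and myosin phosphatase signalling, none reached an unadjusted p of 0.05. Rock2, a kinase that acts on myosin phosphatase, had a log2 fold change of 0.28 and Ppp1r12c, a myosin phosphatase subunit, 0.28 in PreIR-GFP against NonIR. Prkg1, cGMP-dependent kinase, had -0.75 there and 0.97 in PreIR-NTN against PreIR-GFP, where the phosphatase subunit Ppp1cb had -0.10. Among 18 anchor and attachment genes, 1 was higher and 1 lower at an unadjusted p under 0.05 in PreIR-GFP against NonIR. Of all genes 5.35% were higher and 3.43% lower there. In PreIR-NTN against PreIR-GFP 1 was higher and 0 lower, against 6.08% of all genes in either direction. Itga5, the fibronectin receptor subunit, had 0.76 in PreIR-GFP against NonIR and -0.45 in PreIR-NTN against PreIR-GFP. Sorbs3, an adaptor at adhesion sites, had -0.23 in the first, and Actn1, α-actinin, had 0.25 in the second. Of the 11 genes around SRF and its MRTF coactivators 9 were tested. In PreIR-GFP against NonIR 2 of the 9 were higher and 0 lower at an unadjusted p under 0.05, and 8 were above 0. Above 0 were 52.7% of all genes there. In PreIR-NTN against PreIR-GFP 1 was higher and 1 lower at that cutoff, and 7 were below 0. Below 0 were 52.7% of all genes in that comparison. Srf itself had 13.6 CPM in PreIR-NTN and 8.57 CPM in PreIR-GFP glands, a log2 fold change of 0.66 with an edgeR adjusted p of 0.805. Fhl1, a LIM-domain protein, had 0.772 CPM in PreIR-NTN and 1.88 CPM in PreIR-GFP glands (log2 fold change -1.28), and 1.05 in PreIR-GFP against NonIR. Tead3 (0.59) and Tead1 (0.42) followed in PreIR-GFP against NonIR, and Mef2c (-0.34) in PreIR-NTN against PreIR-GFP. Myocd, the SRF coactivator of smooth muscle, had 0 reads in PreIR-NTN, 4 in PreIR-GFP and 3 in NonIR libraries.

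Across the 13 libraries, the contractile genes did not vary as 1 block. Pearson's r of log2 CPM was above 0 for 23 of 28 gene pairs, with a median of 0.20 and a range from -0.25 to 0.86. With a permutation test of 100000 resamples and Benjamini-Hochberg adjustment over the 28 pairs, 7 pairs had an adjusted p under 0.05, and by Spearman's rho 3 pairs did. Of the 7 pairs 6 join Cnn1, Tagln, Mylk and Actg2, and the seventh joins Myh11 and Lmod1. Acta2 was in none of the 7 pairs, with r of 0.10 with Cnn1 and -0.01 with Myh11. These values depend on the scaling. With scaling by total reads alone, Acta2 had r of 0.60 with Tagln, 0.53 with Smtn and 0.51 with Myh11. It had 0.34 with Actg2 and 0.08 with Cnn1 there, and none of these passed (permutation adjusted p of 0.170 or more). With TMM scaling, the highest r of Acta2 with another contractile gene was 0.59, with Actg2 (permutation adjusted p = 0.115). That pair passed at r = 0.75 without PreIR-GFP 1 and PreIR-GFP 2 (permutation adjusted p = 0.0388), where 6 pairs passed, of which 5 were among the 7, and at r = 0.76 without PreIR-GFP 1 alone.

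Cnn1 and Tagln were the closest pair, with r = 0.86 and rho = 0.81 over 13 libraries (permutation adjusted p = 0.00420 and 0.0186). Without the 2 libraries farthest from the median of Cnn1, PreIR-GFP 1 and PreIR-GFP 5, r was 0.74, and with group means removed it was 0.87. Myh11 and Lmod1 had r = 0.79 and rho = 0.71 (permutation adjusted p = 0.0132 and 0.0571), and r = 0.62 without NonIR 1 and PreIR-NTN 5. Cnn1 and Mylk had r = 0.78 and rho = 0.84 (permutation adjusted p = 0.0133 and 0.0174).

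Of the first 4 genes, Cnn1, Tagln and Mylk correlated with the TMM factor, and Actg2 did not pass that test. CPM values are divided by this factor, so a correlation with it is in part built in. The permutation test does not allow for that, so its p cannot show a tie to library composition. Cnn1 had r = -0.89 with the log2 TMM factor (permutation adjusted p = 0.00121 over 27 relations) and r = 0.88 with the share of reads in the 10 most abundant genes. Tagln had r = -0.77 and Mylk r = -0.71 with the TMM factor, and Actg2 had -0.51 (permutation adjusted p = 0.230). With the share in the 10 most abundant genes, r was 0.75 for Tagln, 0.64 for Mylk (permutation adjusted p = 0.0712) and 0.45 for Actg2 (permutation adjusted p = 0.309). With the TMM factor, Acta2 had r of 0.12, Myh11 0.21 and Lmod1 0.02. With scaling by total reads alone, r of Cnn1 and Tagln was 0.46 and r of Cnn1 and Mylk 0.49, and only Myh11 with Lmod1 had an adjusted p under 0.05, at r = 0.85 (permutation adjusted p = 0.00448). As a description, 1.08% of the 14726 other genes had an r with Cnn1 at least as high as that of Tagln, 4.73% at least as high as that of Mylk, and 8.19% at least as high as that of Actg2. For Myh11, 0.115% had an r at least as high as that of Lmod1.

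**Figure D4:**
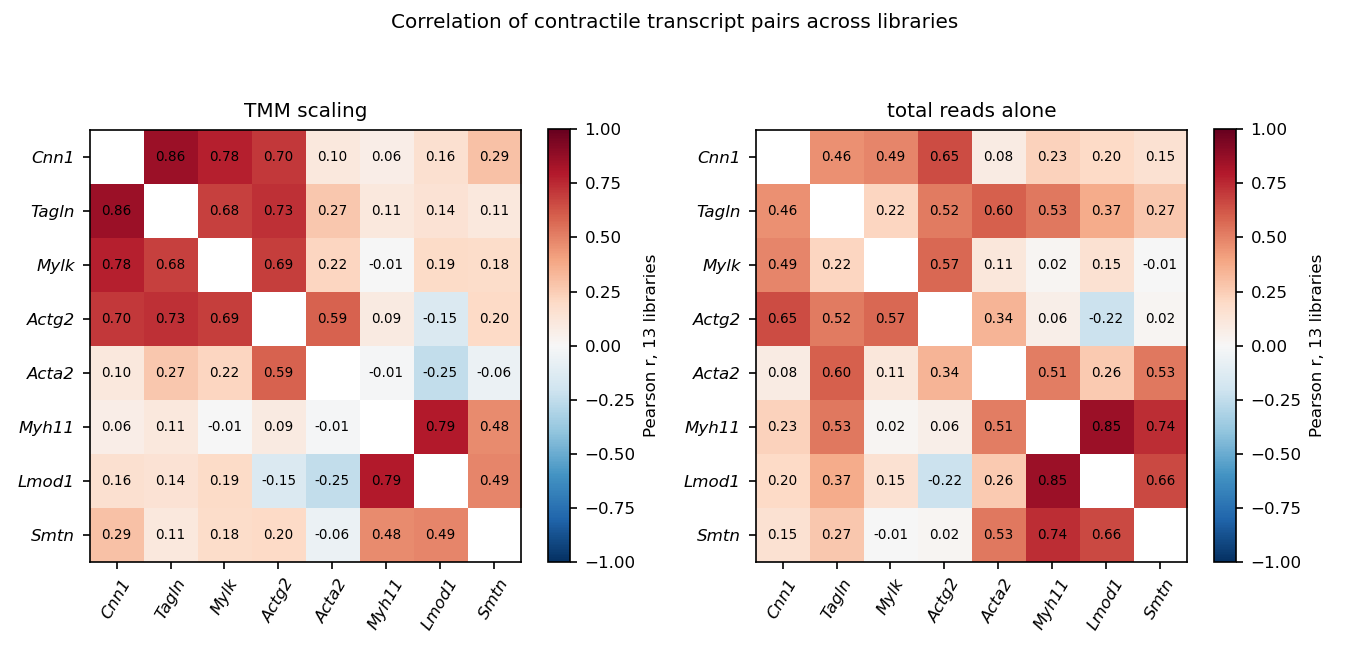
Pearson r of log2 CPM across 13 libraries for each pair of the 8 detected contractile genes, after TMM scaling (left) and with scaling by total reads alone (right); color runs from -1 to 1. The block of Cnn1, Tagln, Mylk and Actg2 at the upper left, 0.68 to 0.86 with TMM scaling, is paler with total reads, while Myh11 with Lmod1 is 0.79 and 0.85.

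Correlations with markers used the 3 genes of highest mean CPM in the basal list and in the mural list. Of the 3 basal genes, taken from a list of 10, Krt14 was the one whose correlation with Acta2 passed. The rest of that list, Krt5 and Trp63 among them, was not tested against the contractile genes. Krt14 had 45.8, 53.0, 31.3, 50.1 and 62.3 CPM in PreIR-NTN glands. It had 50.7, 55.2, 41.7, 49.4 and 47.3 CPM in PreIR-GFP glands, and 55.0, 52.7 and 50.3 CPM in NonIR glands. PreIR-NTN 3 had the lowest value of both genes. Of 48 pairs of a contractile gene with 1 of 3 basal or 1 of 3 mural marker genes, Acta2 with Krt14 had the highest r, 0.87, with rho = 0.85 (permutation adjusted p = 0.00624 and 0.0283 over 48 pairs). It was 0.88 with group means removed, 0.94 with scaling by total reads, 0.73 without NonIR 1 and PreIR-NTN 3, and 0.74 to 0.90 when each library was left out in turn. Among the 14726 other genes tested, 0.00679% had an r with Krt14 at least as high as that of Acta2, which is Acta2 alone, and 0.0407% had an r with Acta2 at least as high as that of Krt14.

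The other basal markers tested did not follow Acta2 in the same way: r was 0.57 with Krt17 (permutation adjusted p = 0.179) and -0.21 with Itgb4 (permutation adjusted p = 0.611). These r values were tested over the same 48 pairs.

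The other pairs with markers that passed had r closer to 0 with scaling by total reads. By r, 4 of the 48 pairs had an adjusted p under 0.05, and by rho 1 did. Actg2 with Krt14 had r = 0.74, and 0.48 with total reads. Cnn1 had r = -0.79 with Rgs5, and -0.61 with total reads, and Tagln had r = -0.76 with the pericyte channel gene Kcnj8, and -0.18 with total reads.

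**Figure D5:**
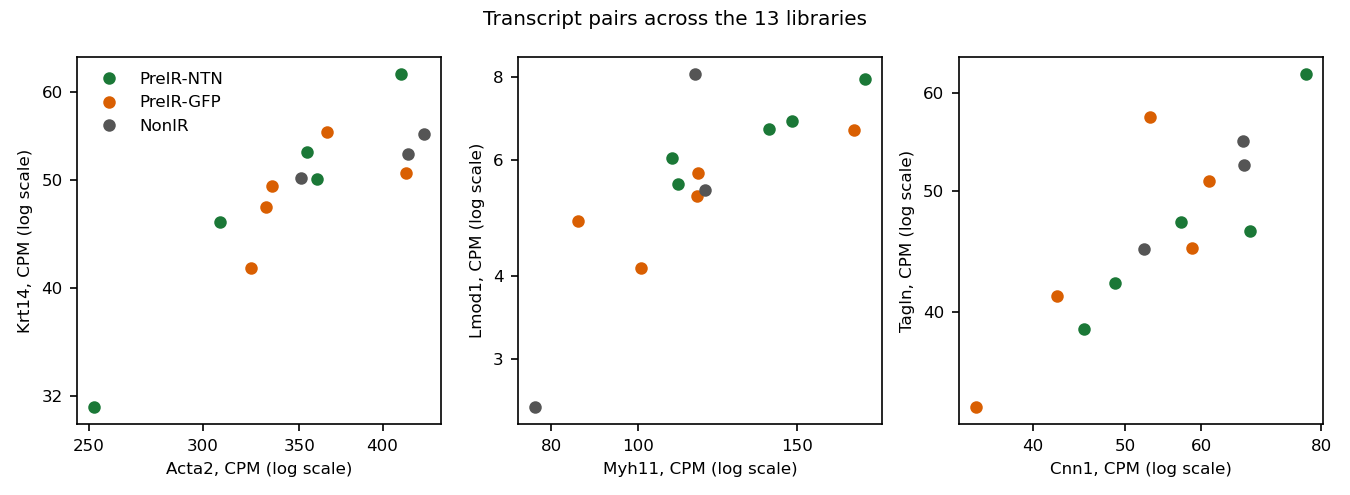
CPM of Krt14 against Acta2, Lmod1 against Myh11 and Tagln against Cnn1 (log axes), 1 point per library, colored by PreIR-NTN, PreIR-GFP and NonIR. The pairs have r of 0.87, 0.79 and 0.86 over 13 libraries, and the lowest point is PreIR-NTN 3, NonIR 1 and PreIR-GFP 1 in that order.

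Among all other genes tested, some had profiles over the 13 libraries closer to a contractile gene than most of the contractile genes had to each other. For Acta2 the 3 highest were Gpc1 (r = 0.93), a glypican, Inpp1 (0.88) and Naglu (0.88). For Myh11 they were Rabep1 (0.94), Mtus2 (0.91) and Scml4 (0.85). For Actg2 they were 2610001J05Rik (0.91), E130308A19Rik (0.89) and Pim2 (0.89). With the mean of the 8 contractile genes, Cbx6, a Polycomb protein, had the highest r, 0.92. Tmem189 (0.83), Gpsm3 (0.82), Hk1os (0.81), Pdgfa (0.81), Coil (0.80), Iqce (0.80), Twf2 (0.80), Cit (0.80) and Cda (0.80) followed. They were picked as the highest over all genes tested, so these values have no test.

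Ratios within a library do not depend on the scaling of libraries, and they too overlapped between groups. Per 100 reads of Acta2, Myh11 had 30.8 to 45.3 reads in PreIR-NTN, 26.4 to 52.3 in PreIR-GFP and 17.9 to 32.9 in NonIR libraries, with means of 40.9, 33.7 and 26.4. Cnn1 had means of 17.6 reads in PreIR-NTN, 14.4 in PreIR-GFP and 15.7 in NonIR libraries, and Tagln 14.1, 13.1 and 12.9. The ratio was chosen after the values were seen and was not tested. A ratio shows unequal levels and not which of its genes differed.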

How the data were processed

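RNA was measured in 13 submandibular gland libraries, grouped by the labels into PreIR-NTN (n = 5), PreIR-GFP (n = 5) and NonIR (n = 3). Full-length cDNA (SMART-Seq v4) was turned into Nextera XT libraries for a NextSeq sequencer, per the labels' protocols. The submitters' processing notes name STAR 2.5.2a, the build GRCm38.p3 (mm10), edgeR, limma and DESeq2, and no counting tool. Triplicates, aligners and an instrument named in the series description differ from this; groups were taken from the sample labels. As deposited by the authors, the main table is a raw read count per gene. They also deposited normalised signal values, each library's counts times 1 constant, for entries that reach 6 reads in some library. Divided by that constant, 100% of the values above 0 were whole reads within 0.001 of a read, and all equalled the count table.

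The 24 entries that are no gene (at most 5.9e-05% of reads) were left out. Genes passed filterByExpr by group (14727 genes, which include 8 of the 9 contractile genes), were scaled by TMM (factors 0.768 to 1.42) and tested on all 13 libraries with edgeR 4.0.16 in R 4.3.3 (quasi-likelihood, two-sided), adjusted by Benjamini-Hochberg over every gene tested, at a threshold of 0.05. Correlations used log2 CPM with a prior count of 2. Lengths and positions came from the GENCODE annotation of GRCm38, and promoters from RefSeq. The members and lists were chosen with earlier results of these data known. Pathway genes are named where they passed the test or were among the 3 with the lowest unadjusted p of their list in a comparison with PreIR-GFP; most-alike genes are the 10 highest for the mean and the 3 highest for single genes, and Oxtr, which was not tested, has none. Alternatives were DESeq2 1.42.0 size factors and Wald test, no filter, limma 3.58.1 with voom or on the deposited normalised signal as log2 with a pseudocount of 0.5 or 2, only the 2 groups compared, a replicate block, and leaving out libraries. Added after seeing the data were scaling by total reads, edgeR on the reads recovered from the normalised values, and pairs without each library. Some genes the naming rule picks are not reported here. The analysis was tested on simulated data. Intervals of fold changes are those of the edgeR fit and cover the spread between libraries. The floor of a 0 count covers counting error only, since PCR reads without molecular identifiers are not independent molecules.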

Additional observations from a re-analysis of the deposited data

How the results depend on the processing

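In 24 alternatives per comparison, 0 of the 8 contractile genes passed the adjusted test, while the count over all genes ran from 0 to 68 in PreIR-GFP against NonIR, 0 to 39 in PreIR-NTN against PreIR-GFP and 0 to 31 in PreIR-NTN against NonIR. Scaling by total reads alone moved the median log2 fold change of all genes in PreIR-GFP against NonIR to 0.12, against 0.02 with TMM. At an unadjusted p under 0.05, 0 contractile genes passed in PreIR-GFP against NonIR, 0 to 1 in PreIR-NTN against PreIR-GFP and 0 to 2 in PreIR-NTN against NonIR. The edgeR test on the reads recovered from the normalised values called 5, 3 and 3 genes in the 3 comparisons, as the count table did. The number of contractile gene pairs with an adjusted p under 0.05 was less stable: 7 with TMM, 1 with scaling by total reads alone, and 1 to 7 when each library was left out in turn. It was 1 without PreIR-NTN 5, 3 without NonIR 2, PreIR-GFP 5, PreIR-NTN 1, PreIR-NTN 2, PreIR-NTN 3 or PreIR-NTN 4, and 4 without PreIR-GFP 4. The cause was not tested. With the replicate number as a block, 0 of the 8 genes and 0 of all genes passed in each comparison. The labels do not say that the numbers pair the libraries. Deviations of 11 same-numbered pairs correlated at -0.70 to 0.46 (median -0.44), with 4 over 0.1. The median of 44 pairs with other numbers was 0.15. Deviations from means of 3 or 5 libraries depend on each other, so these values cannot decide whether libraries are paired. With the longest transcript in place of merged exons, levels moved by more than 1 SD for Mylk (3.59 CPM per kilobase in PreIR-NTN), Tagln (29.7) and Smtn (1.93). Cnn1 did so in NonIR glands only, with 25.9 against 22.5 CPM per kilobase. Acta2 stayed highest, and Smtn came above Lmod1 in each group. Groups of 3 and 5 libraries and, for Actg2, at most 74 reads per library limit the precision.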
